A study of Gallus gallus with 10 samples.

Results

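G0S2, PNPLA2, ABHD5 and PLIN2 encode proteins of the lipid droplet surface that control how stored triglyceride is broken down, and their transcripts were examined in the isthmus of 10 hens. They were chosen by gene symbol, and the choice was made with the difference of G0S2 between the groups already known, so that difference is given as a description and was not tested. Of the 4 symbols, 3 (G0S2, PNPLA2 and PLIN2) were found among the 17617 rows of the expression table, each on 1 row, and all 3 passed the filter on low counts that left 12858 genes for testing. ABHD5 is not analysed here.

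The samples were white isthmus tissue of wild-type dwarf white hens, in which the membranes under the eggshell are formed, taken in both groups a few hours after an egg was laid. The translucent group was 5 hens that repeatedly laid eggs with translucent shells and was selected for thinner eggshell membranes. At sampling, membrane thickness was stated not to differ between the groups. The opaque group was 5 hens that repeatedly laid opaque eggs and had normal membranes. One RNA-seq library was made per hen, neither group received a treatment, and the tissue was sequenced whole.

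In human and mouse cells, triglyceride in a lipid droplet is first cut by adipose triglyceride lipase, the product of PNPLA2. The G0S2 protein binds this lipase and inhibits it, whereas ABHD5 activates it. PLIN2 coats the droplet surface in most cell types and shields the lipid from lipases. Downstream of PNPLA2, hormone-sensitive lipase (LIPE) and monoacylglycerol lipase (MGLL) release the remaining fatty acids, and free fatty acids act on nuclear receptors of the PPAR family, of which G0S2 and PLIN2 are known target genes.

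Total gene counts ranged from 15245165 to 19014779 in the translucent hens and from 11601225 to 17309287 in the opaque hens, and the ratio of the median totals was 1.40. On the first principal component of log2 CPM, which held 39.8% of the variance, Opaque-5 (-78.3) and Translucent-1 (-54.7) stood apart, the remaining hens ranging from -11.9 to 36.4. Of the genes listed for isthmus epithelium, LOXL2, EPCAM, CDH1 and KRT18 were found in both groups. Their summed level was between 7856 and 14605 CPM in the translucent hens and between 8367 and 18637 CPM in the opaque hens. Most of this sum was LOXL2, a lysyl oxidase homolog that the study ties to collagen processing, with a mean of 9701 CPM over the hens. The means were 1459 CPM for EPCAM, 514 CPM for CDH1 and 58.2 CPM for KRT18. In the translucent hens EPCAM was between 944 and 2054 CPM, CDH1 between 409 and 587 CPM and KRT18 between 20.2 and 167.7 CPM. In the opaque hens these ranges were 1123 to 2326 CPM, 382 to 685 CPM and 19.8 to 125.0 CPM. COL10A1, the other gene on this list, was not matched by its symbol. Of the fat cell markers, PLIN1, CIDEC and FABP4 had at most 4, 0 and 11 reads in any hen. The others were present in every hen, ADIPOQ with between 262 and 768 reads, CD36 with 15 to 132 and LPL with 19 to 61. Over all 6 fat cell markers, of which 3 passed the filter, the sum was between 26.0 and 49.3 CPM in the translucent hens and between 32.0 and 46.1 CPM in the opaque hens. Of the 6 markers of heterophils, the granulocytes of birds, 4 were found, CATHL1 was at 0 and CATHL2 had at most 1 read, and the sum was between 0.307 and 4.15 CPM in the translucent hens and between 1.28 and 2.16 CPM in the opaque hens. Leukocyte markers summed to 25.3 to 108.0 CPM in the translucent hens and 18.7 to 56.4 CPM in the opaque hens, and macrophage markers to 37.3 to 65.6 CPM and 22.04 to 57.8 CPM. Smooth muscle markers summed to 799.5 CPM in Translucent-1 and to between 233.7 and 483.3 CPM in the other hens. Red blood cell markers, of which HBBR and HBE were at 0, summed to 63.8 to 192.4 CPM and 66.2 to 124.1 CPM. The part of these cells in the results was not tested. In whole tissue, fewer cells of a type and less RNA per cell cannot be told apart.

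The inhibitor G0S2 (ENSGALG00000023933) was lower in every translucent hen than in every opaque hen. Levels are given as read counts relative to the library total scaled by the TMM method of edgeR (CPM), which removes differences in sequencing depth between hens but not in gene length. In Translucent-1 to Translucent-5, G0S2 was at 8.92, 4.04, 2.84, 7.07 and 6.15 CPM. In Opaque-1 to Opaque-5 it was at 11.6, 11.8, 12.4, 15.7 and 32.8 CPM. The groups did not overlap, the closest pair being Translucent-1 and Opaque-1, and Opaque-5 stood well above the other 4 opaque hens. These levels rest on 44 to 145 reads in the translucent hens and 142 to 332 reads in the opaque hens, although the opaque libraries were mostly the smaller ones.

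The mean level of G0S2 (± SD, n = 5 hens per group) was 5.81 ± 2.41 CPM in translucent and 16.9 ± 9.08 CPM in opaque hens. The log2 fold change of translucent against opaque, fitted by edgeR over all genes, was -1.53 with a standard error of 0.38, and the fitted opaque level was 2.89 times the translucent one. Without Opaque-5 the log2 fold change was -1.14, and without Translucent-1 and Opaque-5 together it was -1.34. Among the 12858 genes tested, 30 (0.233%) were lower in all translucent hens than in all opaque hens, and G0S2 was the only one of the 3 genes to be so. An unadjusted p-value of at most 0.05 with at least a 2-fold difference, a criterion stated in the study, was met in the lower direction by 28 genes (0.218%), again with G0S2 as the only one of the 3. With an adjusted p-value below 0.05 plus a more than 2-fold difference as the threshold, edgeR called 0 genes (0%), so none of the 3 passed. In that fit 282 genes (2.19%) had an unadjusted p-value under 0.05. DESeq2 called 2 genes, G0S2 not being among them (adjusted p = 0.110 from DESeq2), and limma called 0. G0S2 was chosen with these results in view, so nothing is read from its place in these counts.

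In the RefSeq annotation of the GRCg7b assembly, G0S2 lies wholly within the span of LAMB3, which encodes a laminin chain of epithelial basement membranes. The counting is not stated to use strand, so reads of the 2 genes may not be fully separated. LAMB3 (ENSGALG00000001343) was at 0.270 to 2.39 FPKM in the translucent hens and 0.590 to 1.22 FPKM in the opaque hens, FPKM being the deposited unit that is scaled to gene length as well as to depth. It was below G0S2 on this scale in 10 of 10 hens. In reads, which are not scaled to gene length, LAMB3 was above G0S2 in Translucent-2 (85 against 63) and Translucent-5 (143 against 108). In the other hens it was below G0S2 in reads as well. The log2 fold change of LAMB3 was 0.41 (standard error 0.49, unadjusted p = 0.416 from edgeR), the opposite sign to that of G0S2. The part of unseparated reads in the values of either gene was not tested. The nearest protein-coding neighbor on 1 side, CAMK1G, had a log2 fold change of 0.76 (standard error 0.44, unadjusted p = 0.109 from edgeR).

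The lipase PNPLA2 (ENSGALG00000014569) varied widely among the hens of each group, and the groups overlapped over most of their range. In Translucent-1 to Translucent-5 its level was 5.66, 14.8, 13.9, 5.51 and 14.5 CPM. In Opaque-1 to Opaque-5 its level was 8.21, 18.9, 14.7, 5.78 and 2.57 CPM. The highest and the lowest hen were both opaque, and within the translucent group 3 hens lay near 14 CPM and the other 2 below 6 CPM. The means (± SD, n = 5 each) were 10.9 ± 4.83 CPM for translucent and 10.03 ± 6.66 CPM for opaque hens. The log2 fold change was 0.11, smaller than its standard error of 0.49. Its sign depended on single hens, since the value lay between -0.12 and 0.47 as single hens were dropped one by one. The 4 hens with the lowest PNPLA2 (Opaque-5, Translucent-4, Translucent-1 and Opaque-4) were also the 4 lowest on the first principal component. In RefSeq, PNPLA2 overlaps EFCAB4B, which is not analysed here.

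The coat protein gene PLIN2 (ENSGALG00000015090) was the steadiest of the 3 genes. Its level was 49.4, 39.9, 43.7, 30.7 and 41.2 CPM in Translucent-1 to Translucent-5. The corresponding values in Opaque-1 to Opaque-5 were 29.4, 47.4, 38.7, 56.5 and 35.5 CPM. Both ends of the range were opaque hens, and the translucent hens fell between them. The means were 41.0 ± 6.80 CPM and 41.5 ± 10.6 CPM (SD, n = 5 each), and the log2 fold change of -0.02 was well within its standard error of 0.19. No RefSeq gene overlapped PLIN2.

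**Figure D1:**
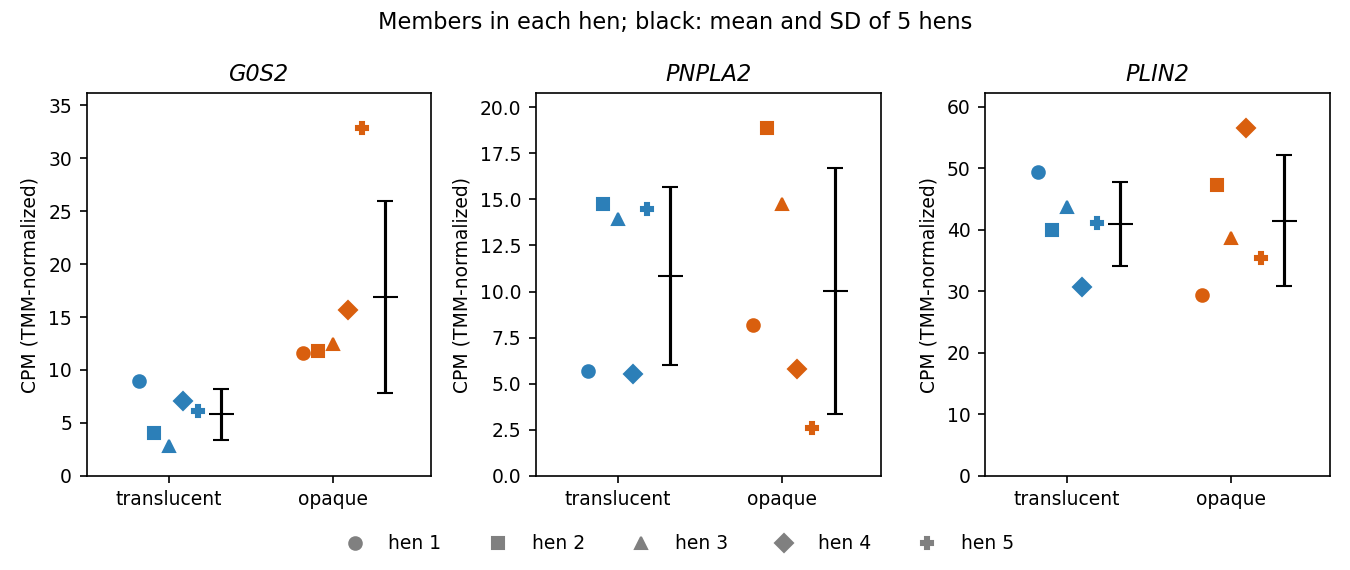
Level of G0S2, PNPLA2 and PLIN2 in each hen, in TMM-normalized CPM on linear axes from 0, with a marker shape per hen number and the mean and SD of 5 hens in black. The translucent hens reach at most 8.92 CPM for G0S2 while the opaque hens start at 11.6 CPM, and the groups overlap for PNPLA2 and PLIN2.

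The 3 genes differed in how much hens of one group varied. The SD of log2 CPM around the group means was 0.64 for G0S2, 0.95 for PNPLA2 and 0.31 for PLIN2, against a median of 0.35 over the genes tested. Of these genes, 81.3% had a smaller SD than G0S2, 93.7% a smaller SD than PNPLA2 and 42.9% a smaller SD than PLIN2. By this measure the lipase and its inhibitor were among the more variable transcripts of the isthmus, and the coat gene was not. The SD was not adjusted for read number, which was 44 to 332 for G0S2, 26 to 254 for PNPLA2 and 359 to 803 for PLIN2. The SD of G0S2 also includes Opaque-5, which stood well above the other opaque hens.

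Levels of different genes were compared in FPKM, since this unit is corrected for gene length. PLIN2 had the highest mean over the 10 hens, 18.7 ± 3.62 FPKM, followed by G0S2 with 15.8 ± 10.6 FPKM and PNPLA2 with 7.0 ± 3.85 FPKM (SD, n = 10 each). They ranked 4155, 4721 and 7532 by mean FPKM among the rows of the table. Over all hens PLIN2 exceeded G0S2 by 0.45 ± 0.98 in log2(FPKM + 1), and G0S2 exceeded PNPLA2 by 1.01 ± 1.49 (mean difference ± SD, n = 10 each), so that in both cases the spread was larger than the difference. The position of G0S2 was not the same in both groups. PLIN2 was above G0S2 in 5 translucent and 2 opaque hens, and G0S2 was above PNPLA2 in 2 translucent and 5 opaque hens. As G0S2 was chosen for its difference between the groups, its place in the order is a description, and no test of it is given. PLIN2 was above PNPLA2 in all 10 hens.

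The order of the 3 genes varied between hens. In all 5 translucent hens PLIN2 was the highest of the 3 genes, and G0S2 was the lowest in 3 of them. In the 5 opaque hens PNPLA2 was always the lowest, and G0S2 was the highest in 3 of them. The level of G0S2 relative to PNPLA2 in FPKM was 3.44, 0.598, 0.446, 2.81 and 0.930 in Translucent-1 to Translucent-5. In Opaque-1 to Opaque-5 this ratio of inhibitor to lipase transcript was 3.08, 1.37, 1.84, 5.93 and 27.9. The medians were 0.930 in the translucent and 3.08 in the opaque group, and the groups overlapped, since the ratios of Translucent-1 and Translucent-4, hens with little PNPLA2, lay among the opaque ones. The ratio of 27.9 in Opaque-5 combined the highest G0S2, 40.8 FPKM, with the lowest PNPLA2, 1.46 FPKM, of all hens. These ratios contain the difference the genes were chosen for and are given as a description.

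**Figure D2:**
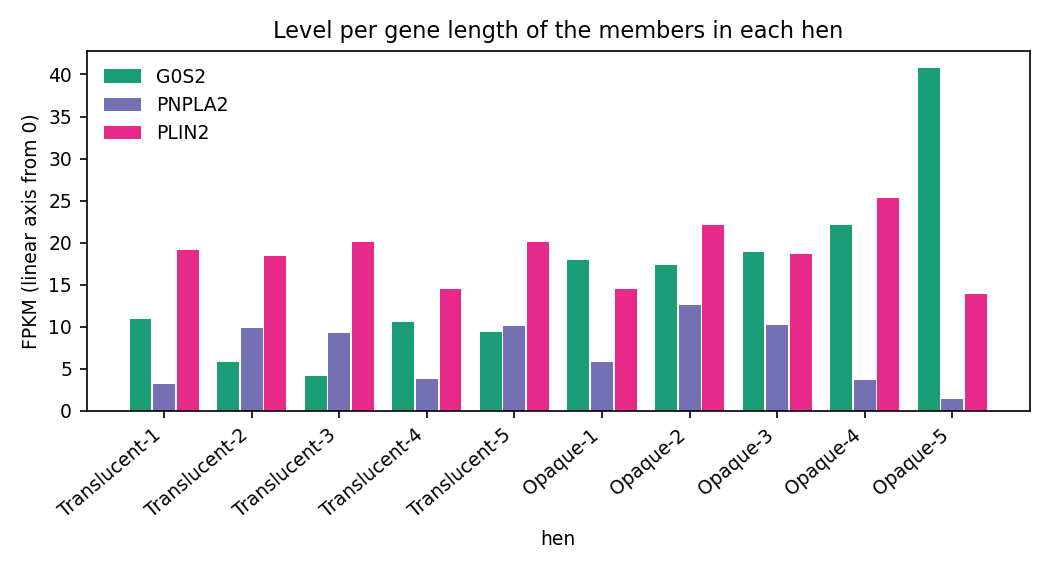
Level per gene length of G0S2, PNPLA2 and PLIN2 in each hen, as bars in FPKM on a linear axis from 0. PLIN2 is the tallest bar in the 5 translucent hens, PNPLA2 is the shortest in the 5 opaque hens, and Opaque-5 reaches 40.8 FPKM for G0S2 with 1.46 FPKM for PNPLA2.

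Whether the 3 genes varied together was examined after the group means of log2 CPM were removed, so that the difference between translucent and opaque hens did not enter. G0S2 and PNPLA2 varied in opposite directions. Pearson's r was -0.82 over the 10 hens (exact two-sided permutation within the groups, p = 0.00451, adjusted over 3 pairs p = 0.0135), while Spearman's rho was -0.62 (same exact permutation, p = 0.0641, adjusted p = 0.192). In Translucent-1, Translucent-4 and Opaque-5 G0S2 was above and PNPLA2 well below the mean of the group, whereas Translucent-5 was above it for both genes. Without Translucent-3 and Opaque-5, the 2 hens farthest from the median of G0S2, r was -0.72 (exact permutation p = 0.0451, adjusted p = 0.135), and the relation was no longer past the adjusted threshold. It also missed the threshold without Opaque-2, Opaque-3 or Opaque-4, although r stayed between -0.83 and -0.82 (exact permutation, adjusted p = 0.0615, 0.0729 and 0.0635). Without Opaque-5 alone r was -0.67 (exact permutation, adjusted p = 0.218), and without Translucent-1 and Opaque-5, the hens apart on the first component, r was -0.56 (exact permutation, adjusted p = 0.521).

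The first principal component moved with both genes, with r = -0.78 for G0S2 and r = 0.87 for PNPLA2 over the same 10 group-centered values, and its part in their relation was not tested. Against sequencing depth, the group-centered values had r = 0.08 for G0S2 -0.22 for PNPLA2 and -0.51 for PLIN2 with the log2 total count. Across genes, which are not independent replicates, 2.85% of the genes tested had an r with G0S2 as low as that of PNPLA2, and 6.94% had an r with PNPLA2 as low as that of G0S2. With TMM scaling, PLIN2 followed neither of the other genes. Its r was -0.07 with G0S2 (exact permutation p = 0.873, adjusted p = 0.873) and 0.19 with PNPLA2 (exact permutation p = 0.669, adjusted p = 0.873). The corresponding rho was 0.03 (exact permutation p = 0.947, adjusted p = 0.947) and 0.20 (exact permutation p = 0.629, adjusted p = 0.944). Other scalings gave larger values that did not pass the adjusted threshold. On log2(FPKM + 1), r was -0.42 with G0S2 and 0.45 with PNPLA2 (exact permutation, adjusted p = 0.284 each). With counts scaled by library size alone, r was -0.41 and 0.46 (exact permutation, adjusted p = 0.290 each). The r of PLIN2 with G0S2 became 0.36 without Translucent-3 and Opaque-5. Its r with PNPLA2 became -0.27 without Translucent-4 and Opaque-5, the hens farthest from the median of PNPLA2.

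**Figure D3:**
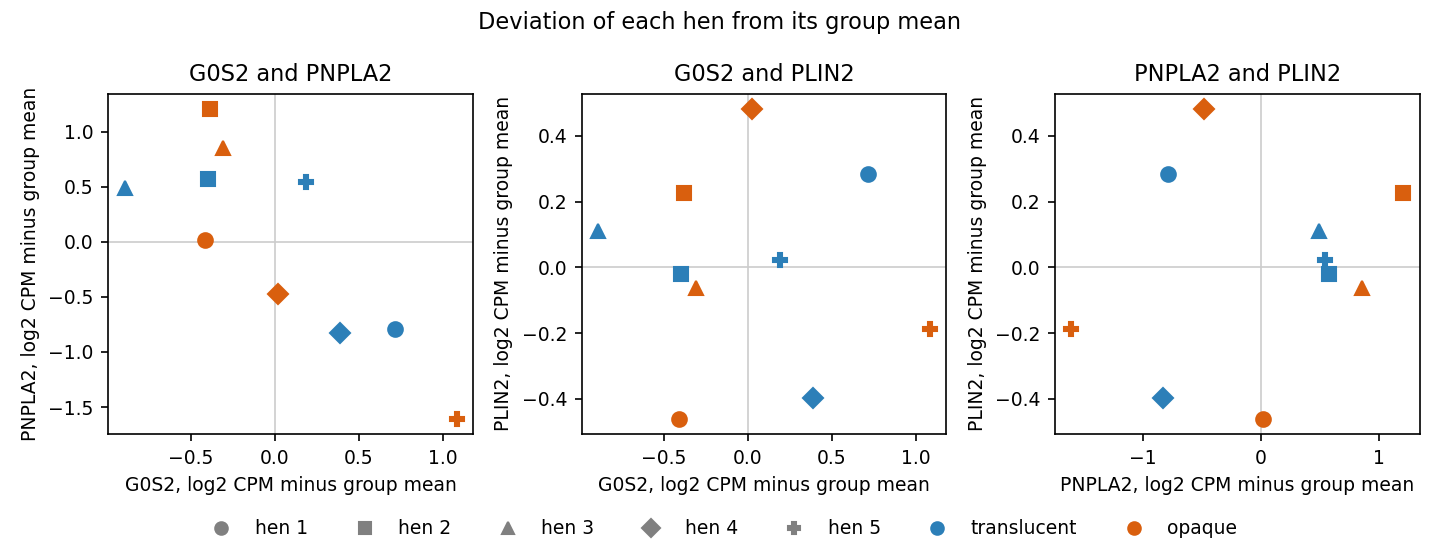
Deviation of each hen from its group mean in log2 CPM for the 3 pairs of genes, with color for the group and a marker shape per hen number. G0S2 and PNPLA2 fall along a descending line with r = -0.82, on which Opaque-5 is the hen at the lower right, and PLIN2 shows no such order with G0S2 (r = -0.07) or PNPLA2 (r = 0.19).

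The genes that followed each of the 3 genes most closely over the 10 hens, after the group means were removed, are given as a description. For G0S2 they were SYTL1, which encodes an effector of the secretory GTPase Rab27, CEBPZ, CMTM3, SPSB1 and NPEPL1, with r between 0.94 and 0.96. None of these passed a threshold between the groups. Of all genes tested, 0% passed the adjusted threshold of edgeR and 0.428% met the unadjusted criterion, so this does not set them apart. The log2 fold change of SYTL1 was -0.32 (standard error 0.20), that of CEBPZ was -0.20 (standard error 0.21), and those of the other 3 lay between -0.06 and 0.05, all with an adjusted p-value of 0.9999 from edgeR. For PNPLA2 the closest genes were VWA3A, NEK10, which encodes a kinase of motile cilia, and PSKH1, with r of 0.97 each. For PLIN2 they were TENM2, FMN1 and KIAA1671, with r of 0.95, 0.94 and 0.94. Lower values were common, since 11.3% of the genes tested had r of at least 0.7 with G0S2, 18.3% with PNPLA2 and 2.36% with PLIN2.

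The other genes of lipid storage and breakdown are set beside G0S2 as a description, since G0S2 was chosen with its difference between the groups known. Over 6 lists, which together held 115 tested genes, 0 genes passed the adjusted threshold of edgeR, 0 met the unadjusted criterion and 0 separated the groups without overlap, against 0.428% and 0.443% of all genes tested for the last 2. At shares this low, counts of 0 among 115 genes do not set the lists apart from other genes. DESeq2 and limma likewise placed 0 of the listed genes within the unadjusted criterion. Before adjustment, 2 of the 115 genes had a p-value under 0.05, LPL and PNPLA3, both lower in the translucent group. This share of 1.74% was no higher than the 2.19% of all genes tested.

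Of 11 lipolysis enzymes and their regulators, 9 were found and tested, 6 with a negative and 3 with a positive log2 fold change and a median of -0.10, against -0.01 over all genes tested. LIPE and HILPDA are not analysed here. LPL, the lipase that acts on lipoproteins at the vessel wall, was at 1.35, 1.22, 2.77, 1.998 and 2.39 CPM in the translucent hens and 3.25, 1.91, 2.80, 4.201 and 4.35 CPM in the opaque hens. The groups overlapped, and the log2 fold change was -0.76 (standard error 0.32, unadjusted p = 0.0370, adjusted p = 0.9999 from edgeR). PNPLA3, the closest relative of PNPLA2 and itself a lipid droplet protein, was at 46.8, 41.9, 39.9, 65.1 and 49.1 CPM in the translucent hens and at 107.1, 86.7, 45.1, 53.6 and 62.0 CPM in the opaque hens. Opaque-1 and Opaque-2 lay above all translucent hens, the other 3 opaque hens lay among them, and the log2 fold change was -0.55 (standard error 0.23, unadjusted p = 0.0385, adjusted p = 0.9999 from edgeR). At the other end of the list were MGLL at a log2 fold change of 0.08 (standard error 0.12) and LIPA, the acid lipase of lysosomes, with 0.18 (standard error 0.17). MGLL, which carries out the last step of lipolysis, had the highest level of this list, 90.7 ± 10.9 FPKM over the 10 hens, and PNPLA3 had 31.8 ± 12.7 FPKM (SD, n = 10 each), both above the 7.0 FPKM of PNPLA2. The mean of LPL was 0.685 FPKM.

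Among the genes of the droplet coat and structure, 8 of 15 were found and 6 tested. Their log2 fold changes lay between -0.06 for LDAH, a droplet-associated hydrolase, and 0.14 for AUP1, with a median of 0.06. RAB18, a GTPase of the droplet surface, was the most highly expressed at 131.4 ± 14.6 FPKM, and its log2 fold change was 0.03 (standard error 0.11). CIDEA, which promotes the fusion of droplets, had a log2 fold change of 0.09 (standard error 0.23). Of the other perilipins, PLIN4 was at 12.8 ± 1.41 FPKM and its log2 fold change was 0.06 (standard error 0.13), PLIN1 was nearly undetected, and PLIN3 and PLIN5 are not analysed here. Among the perilipins examined, PLIN2 had the highest mean FPKM.

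Triglyceride synthesis was represented by 16 tested genes of 21, 9 with a positive and 7 with a negative log2 fold change and a median of 0.03. The largest value was that of GPAM, the mitochondrial enzyme of the first acylation step, with means (± SD, n = 5 each) of 88.9 ± 33.6 CPM for translucent and 68.7 ± 31.7 CPM for opaque hens and a log2 fold change of 0.37, about the size of its standard error of 0.37. LPIN2 followed with 0.28 (standard error 0.19). At the negative end were GPAT2 with -0.33 (standard error 0.45) and MOGAT1 with -0.25 (standard error 0.28), both at low levels of at most 2.33 CPM in either group mean. DGAT2, which joins the last fatty acid, had a log2 fold change of 0.01 (standard error 0.24). The log2 fold changes of these enzymes spread to both sides of 0. None passed a threshold, which at shares of 0% (adjusted) and 0.428% (unadjusted) over all genes tested does not set them apart.

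The list for fatty acid sensing receptors, their regulators and their targets had 12 negative and 2 positive log2 fold changes among 14 tested genes. This list also holds NR1H3, SREBF1, CEBPB and FOXO1, all of them negative. Its median was -0.10, while 51.4% of all genes tested were negative. None of the 14 had an unadjusted p-value under 0.05 from edgeR, against 2.19% of all genes tested. With hens numbered 1 to 3 only the median was 0.002. The lowest was PPARG, the receptor that drives fat cell formation, with means (± SD, n = 5 each) of 1.31 ± 0.921 CPM for translucent and 1.82 ± 1.74 CPM for opaque hens and a log2 fold change of -0.46 (standard error 0.61). FABP3, a fatty acid carrier, had -0.34 (standard error 0.36). PPARA and RXRA were the positive ones, with 0.09 (standard error 0.23) and 0.12 (standard error 0.31). The liver X receptor NR1H3 was the most highly expressed, at 61.3 ± 5.63 FPKM, and had a log2 fold change of -0.09 (standard error 0.09).

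The annotations of the table gave broader lists. The KEGG pathway for the regulation of lipolysis held 56 other genes, of which 41 were tested, 19 with a positive and 22 with a negative log2 fold change and a median of -0.01. Besides PNPLA3, its extremes were ADCY7, an adenylate cyclase, at 0.96 (standard error 0.74), PIK3CD with 0.44 (standard error 0.30) and IRS1, an insulin receptor substrate, with -0.35 (standard error 0.34). The GO term lipid droplet held 44 other genes, of which 40 were tested, 23 with a positive and 17 with a negative log2 fold change and a median of 0.03. There the extremes besides PNPLA3 were the interferon-induced RSAD2 with -0.52 (standard error 0.61), NSDHL, a sterol synthesis enzyme, with 0.31 (standard error 0.28) and EDA with 0.30 (standard error 0.39). The positive value of ADCY7 rested on Translucent-5, and without this hen it was -0.14 (standard error 0.57). Translucent-5 also had the highest leukocyte markers, 108.0 CPM against at most 38.2 CPM in the other translucent hens, and their part in its ADCY7 level was not tested. None of the named extremes other than PNPLA3 had an unadjusted p-value under 0.05. The log2 fold change of G0S2 lay below the lowest of all 115 genes. As G0S2 was chosen with this difference known, nothing is read from its place.

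**Figure D4:**
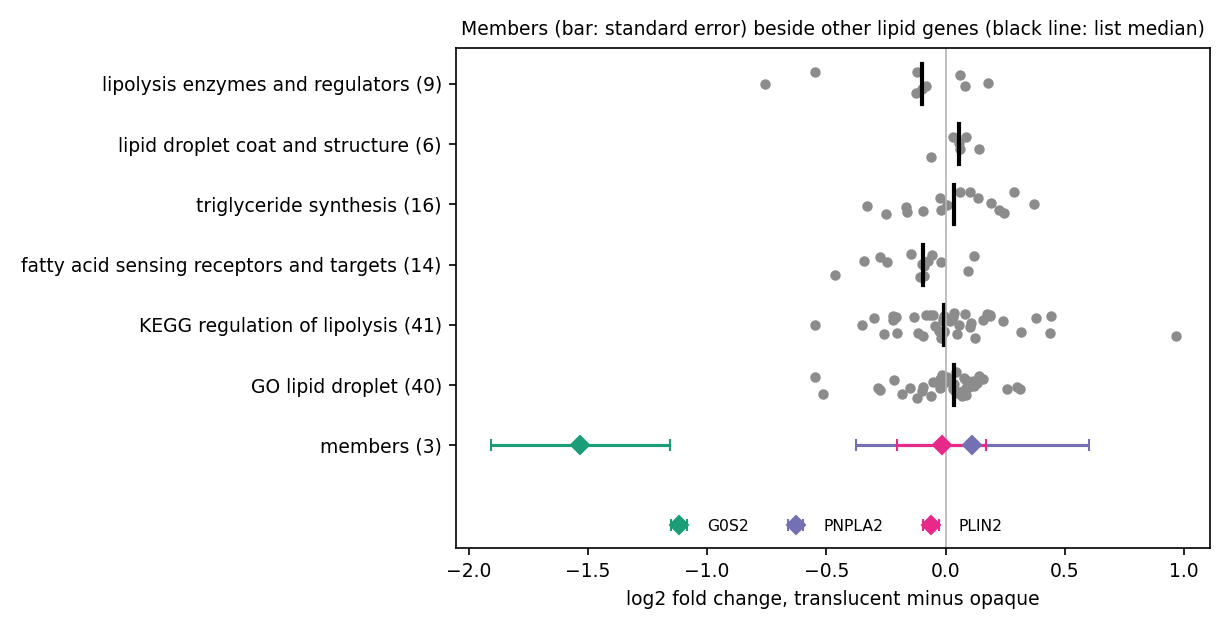
Log2 fold change of translucent against opaque hens for the tested genes of 6 lipid gene lists (grey points, a black line at each median, number of genes in brackets) and for G0S2, PNPLA2 and PLIN2 (diamonds with the standard error as bars). G0S2 at -1.53 lies to the left of every listed gene, the lowest of which is LPL at -0.76, while PLIN2 at -0.02 and PNPLA2 at 0.11 lie among them. G0S2 was chosen with its difference known, so its place is a description.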

How the data were processed

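White isthmus tissue of 5 translucent and 5 opaque hens was sequenced, 1 library for each hen. Per the study's methods, reads were filtered with fastp, rRNA reads were removed with Bowtie2, the rest were aligned with HISAT2, and transcripts were assembled with StringTie and quantified with RSEM. The genome build is not given in the sources used here. The table deposited by the authors holds, for each gene and hen, the expected counts of RSEM, not normalized and 6.73% of them fractional. It also holds FPKM, scaled by the authors to gene length and depth. Counts of G0S2, PNPLA2 and PLIN2 were whole in every hen.

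Counts were rounded, filtered by filterByExpr, scaled by TMM and tested over all genes with edgeR 4.0.16 (quasi-likelihood, Benjamini-Hochberg) in R 4.3.3. Standard errors are the absolute log2 fold change divided by the square root of F. Log2 CPM used a prior count of 2. DESeq2 1.42.0 and limma 3.58.1 on log2(FPKM + 1) were alternatives. The exact permutation tests enumerated 14400 orders within the groups with 10 hens, 2880 with 9 hens and 576 with 8 hens. A sign-flip test of the order of levels, planned over all 10 hens, is not given because it pools both groups. The steps were checked on simulated data. A floor of 3 counts is 0.158 to 0.259 CPM and covers counting error only.

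Members, lists and tests were chosen with earlier results of these data known. From each list the 2 lowest and 2 highest log2 fold changes were named, plus any gene past a criterion, and the genes most like each member by r (5 for G0S2, 3 for the others, mean of at least 1 CPM). MGLL, RAB18 and NR1H3 as the genes of highest level, and PLIN4 and DGAT2, were named after their values were seen. Gene neighbors were taken by symbol from RefSeq.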

Additional observations from a re-analysis of the deposited data

Results flagged for a closer look

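In 50 groups of 5 hens (25 genes named in the text, in each group), 7 had a hen whose distance from the nearest other hen was large against the range of its group. The cutoff is meant to flag about 1 in 20 groups of normally distributed values. That rate does not hold for this set, since most of these genes were named for extreme log2 fold changes, which 1 outlying hen can produce. The number of flagged groups is therefore not compared with it. Among the 3 genes of interest the flagged case was G0S2 in Opaque-5, at 32.8 CPM with the next opaque hen at 15.7 CPM. The log2 fold change without Opaque-5 was -1.14.

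In what follows, the next hen is the next one of the same group. Translucent-5 was the high hen in 3 cases: ADCY7 at 8.83 CPM with the next hen at 1.48 CPM, LIPA at 41.2 CPM with the next at 25.3 CPM, and PPARA at 18.4 CPM with the next at 10.1 CPM. This hen also had the highest summed leukocyte markers, 108.0 CPM with at most 38.2 CPM in the other translucent hens, and the highest macrophage markers, 65.6 CPM, whose part in these values was not tested. PPARG was at 4.90 CPM in Opaque-4 with the next at 1.48 CPM. RSAD2 was at 11.2 CPM in Opaque-5 with the next at 3.13 CPM. RAB18 was at 256.1 CPM in Translucent-3 with the next translucent hen at 232.2 CPM, while Opaque-4 was higher at 266.0 CPM.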

How the results depend on the processing

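The log2 fold change of G0S2 lay between -1.74 and -1.14 over 20 alternatives. G0S2 was chosen with its difference known and its groups did not overlap. Its unchanged sign is therefore a description and no support for the difference. The log2 fold changes of PNPLA2 and PLIN2 changed sign in some alternatives, lying between -0.27 and 0.47 and between -0.13 and 0.22. PNPLA2 moved by less than its standard error of 0.49 in each alternative. With hens numbered 1 to 3 only, PLIN2 was at 0.22 and moved by more than its standard error of 0.19. DESeq2 called 2 genes in place of 0. The number of genes within the unadjusted criterion was 55, and 218 with no low-count filter, 19 with at least 10 reads in every hen, 233 with hens numbered 1 to 3 only and 13 with limma on log2(FPKM + 1). It was 71 to 99 when each hen was left out. With hens numbered 1 to 3 only, 1 gene of the KEGG list met that criterion and the median of the GO lipid droplet list was -0.057.

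By Pearson's r, the relation of G0S2 and PNPLA2 kept its sign in 16 of 16 alternatives and passed the adjusted threshold in 10. These include the setting with group means not removed, in which the difference between the groups entered (r = -0.62, rho = -0.30). It did not pass without Translucent-3 and Opaque-5 (r = -0.72), without Translucent-1 and Opaque-5 (r = -0.56) and when any of Opaque-2 to Opaque-5 was left out. Over the hens left out in turn, r lay between -0.87 and -0.67. By Spearman's rho, only the setting without Translucent-3 passed (exact permutation, adjusted p = 0.0469). With library size alone and on both FPKM scales, rho had an adjusted p of 0.118 (exact permutation). For G0S2 and PLIN2, r lay between -0.27 and 0.13 when each hen was left out and was 0.36 without Translucent-3 and Opaque-5. It was -0.42 on log2(FPKM + 1), -0.42 on log2(FPKM + 0.1) and -0.41 with library size alone. Without Translucent-3 it was 0.01, without Translucent-4 0.06, without Opaque-2 0.00 and without Opaque-5 0.13. For PNPLA2 and PLIN2, r was -0.27 without Translucent-4 and Opaque-5, 0.02 to 0.39 when each hen was left out, 0.45 on log2(FPKM + 1), 0.47 on log2(FPKM + 0.1) and 0.46 with library size alone. In FPKM, the mean difference of PLIN2 over G0S2 lay between 0.27 and 0.66 with a hen left out, the highest without Opaque-5 (0.66), and that of G0S2 over PNPLA2 lay between 0.67 and 1.24, the highest without Translucent-3 (1.24).

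The replicate numbers 1 to 5 are shared by hens of both groups, which are different animals. Their deviations from the group means correlated with an average r of -0.13 for the 5 pairs that share a number and 0.04 for the 20 that do not, and 0 hens correlated best with their own number. With the number as a replicate block, edgeR again called 0 genes, 55 genes met the unadjusted criterion, and the log2 fold changes were -1.52 for G0S2, 0.21 for PNPLA2 and 0.00 for PLIN2.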

Other observations

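A few genes of the lipid gene lists were prominent in the isthmus or varied strongly between hens. They were picked after their values were seen. NPY, which encodes neuropeptide Y, a signal that inhibits lipolysis in fat cells, had the highest level of the tested genes of the KEGG list, 171.7 FPKM on average and between 77.7 and 347.3 FPKM over the hens. Its log2 fold change of translucent against opaque was -0.22 (standard error 0.37). PDK4, a kinase that turns cells from glucose to fatty acid use and a known PPAR target, ranged from 3.29 to 62.4 FPKM, and its fold change on the log2 scale was -0.06 (standard error 0.64). Irs2, on a locus named by StringTie, ranged from 19.9 to 152.6 FPKM, and the corresponding value was -0.20 (standard error 0.53). None of these 3 genes passed the adjusted threshold of edgeR (adjusted p = 0.9999 each), nor did any other gene tested.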
